A study of Mus musculus with 6 samples.

Results

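The heat shock chaperones described here are 10 mouse genes, of which Hspa1a, Hspa1b, Hspa8, Hsph1, Dnajb1, Hspb1 and Cryab encode proteins of the cytosol and Hspa9, Hspd1 and Hspe1 encode proteins of the mitochondrial matrix. They were taken by name from the array annotation, keeping probe sets with exactly 1 gene symbol, which gave 24 probe sets for the 10 genes out of 22626 probe sets on the array. RNA came from cochleae, the coiled part of the inner ear that senses sound, of male mice of the inbred strain DBA/2J, which becomes deaf at a young age. There were 3 samples of mice aged 7 weeks and 3 of mice aged 36 weeks, with 1 single-colour Affymetrix array per sample. Strain, sex and tissue were shared by both ages, and age was the only difference that the labels gave. The labels did not say whether a sample was 1 animal or a pool, so p-values measure the spread between these samples.

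Heat shock proteins bind unfolded or partly folded proteins and let them fold, be moved or be degraded. Proteins of the Hsp70 family do this in cycles of ATP hydrolysis that J-domain proteins start and nucleotide exchange factors such as Hsp110 end, small heat shock proteins hold unfolding proteins without using ATP, and the barrel of Hsp60 with its lid Hsp10 folds proteins inside mitochondria. Under stress, heat shock factor 1 raises many of these genes by binding heat shock elements, which are inverted repeats of the letters GAA. In the inner ear the heat shock response is known for protecting hair cells from noise and from drugs that damage them.

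To show where such letters lie in the members, the promoter windows of RefSeq (GRCm38.p6), which run from 250 bases before to 50 after a start site, were searched on both strands for inverted repeats of 2 units, GAANNTTC or TTCNNGAA. Windows were held for 7 of the 10 genes, 10 windows in all, and for Hspa8, Hspa9 and Cryab none was used here. Of the 10 windows 7 had a match, against 15.1% of 32851 windows of the same length. These 7 belonged to 6 genes and were not separate sequences, so their count repeats some matches. The 2 windows of Hsph1 overlap and hold the same matches. A window of Hspd1 shares 285 bases with that of Hspe1, and those of Hspa1a and Hspa1b were identical at 296 of 300 bases. The windows of 4 members are printed from 5′ to 3′ because these genes had different outcomes in the comparison of ages, with every 2-unit match in capitals. Matches that overlap form a longer run.
Hspa1b (chr17:34959189-34959488, minus strand): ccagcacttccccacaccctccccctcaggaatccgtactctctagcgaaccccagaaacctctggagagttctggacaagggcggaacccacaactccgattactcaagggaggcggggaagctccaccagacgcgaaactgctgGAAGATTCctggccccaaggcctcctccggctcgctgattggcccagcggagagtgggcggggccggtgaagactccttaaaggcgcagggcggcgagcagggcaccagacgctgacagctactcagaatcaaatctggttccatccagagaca
Hsph1 (chr5:149636266-149636565, minus strand): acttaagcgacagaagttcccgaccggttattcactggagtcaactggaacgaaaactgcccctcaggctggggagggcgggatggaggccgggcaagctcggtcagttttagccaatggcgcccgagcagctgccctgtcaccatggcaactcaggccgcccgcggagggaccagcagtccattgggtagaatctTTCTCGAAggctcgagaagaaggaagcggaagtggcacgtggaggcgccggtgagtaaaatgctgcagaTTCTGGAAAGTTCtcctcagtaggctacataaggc
Hspb1 (chr5:135887669-135887968, plus strand): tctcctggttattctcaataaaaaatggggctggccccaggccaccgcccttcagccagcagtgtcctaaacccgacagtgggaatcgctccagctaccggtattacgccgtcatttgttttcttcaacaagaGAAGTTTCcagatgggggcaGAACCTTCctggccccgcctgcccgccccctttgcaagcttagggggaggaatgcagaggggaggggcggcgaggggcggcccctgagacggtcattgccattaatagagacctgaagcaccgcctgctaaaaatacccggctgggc
Hspe1 (chr1:55087898-55088197, plus strand): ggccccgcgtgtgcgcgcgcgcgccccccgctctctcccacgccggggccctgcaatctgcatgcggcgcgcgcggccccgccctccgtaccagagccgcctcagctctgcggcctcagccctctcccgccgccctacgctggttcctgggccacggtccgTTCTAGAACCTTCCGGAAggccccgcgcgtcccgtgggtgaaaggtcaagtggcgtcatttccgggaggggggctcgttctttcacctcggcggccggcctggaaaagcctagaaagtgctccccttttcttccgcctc

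The Hspa1b window had 1 match, GAAGATTC, from 104 to 97 bases before the start site. Hspa1a, whose window starts 12918 bases away on the same chromosome, had the same match at the same distance, and the windows of these neighbours were identical at 296 of 300 bases. Hspb1 had separate matches from 117 to 110 and from 97 to 90 bases before its start. Hsph1 had 1 match from 54 to 47 bases before the start and a run of 3 units, TTCTGGAAAGTTC, from 16 to 28 bases after it. Hspe1 had 4 units in a row, TTCTAGAACCTTCCGGAA, from 72 to 89 bases before its start. One of the windows of Hspd1, which lies head to head with Hspe1 and shares 285 bases of it, held the same run read from the other strand. A run of 3 units (GAANNTTCNNGAA or TTCNNGAANNTTC, which are reverse complements) was in 0.603% of all windows and a run of 4 in 0.0244%. Neither window of Dnajb1 had a match, which says only that these letters are not in these windows.

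Most members were lower at 36 weeks, and the inducible Hsp70 genes Hspa1a and Hspa1b and the small heat shock protein gene Cryab had the largest falls. Hspb1 was higher. The signals were tested as log2(signal + 50) with limma, 36 weeks minus 7 weeks, on the probe sets whose mean signal was above the 40th percentile, and a Benjamini-Hochberg adjusted p under 0.05 over all of them was the threshold. The filter kept 20 of the 24 member probe sets, at least 1 for each gene. Of these 20, 12 fell and 1 rose, against 17.7% lower and 16.7% higher of the 13575 probe sets tested in all, 34.4% in either direction. All 20 also passed a filter at the 60th percentile, where 2144 of 9050 probe sets were lower and 1776 higher. With that filter 12 of the 20 were lower and 1 higher. Hspa1a by 1452388_at, 1 of these 12, passed that filter through its arrays of 7 weeks. Its means were 1635.8 at 7 weeks and 720.9 at 36 weeks, so the stricter filter gives no separate support for its fall. When each gene was represented by its brightest tested probe set, 7 of 10 genes fell, 1 rose and 2 did not pass. The median log2 difference over the 20 probe sets was -0.43, against 0.02 over all tested. In 13 of the 20 (65.0%) the signals of the ages did not overlap, against 47.8% of all tested probe sets.

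**Figure D1:**
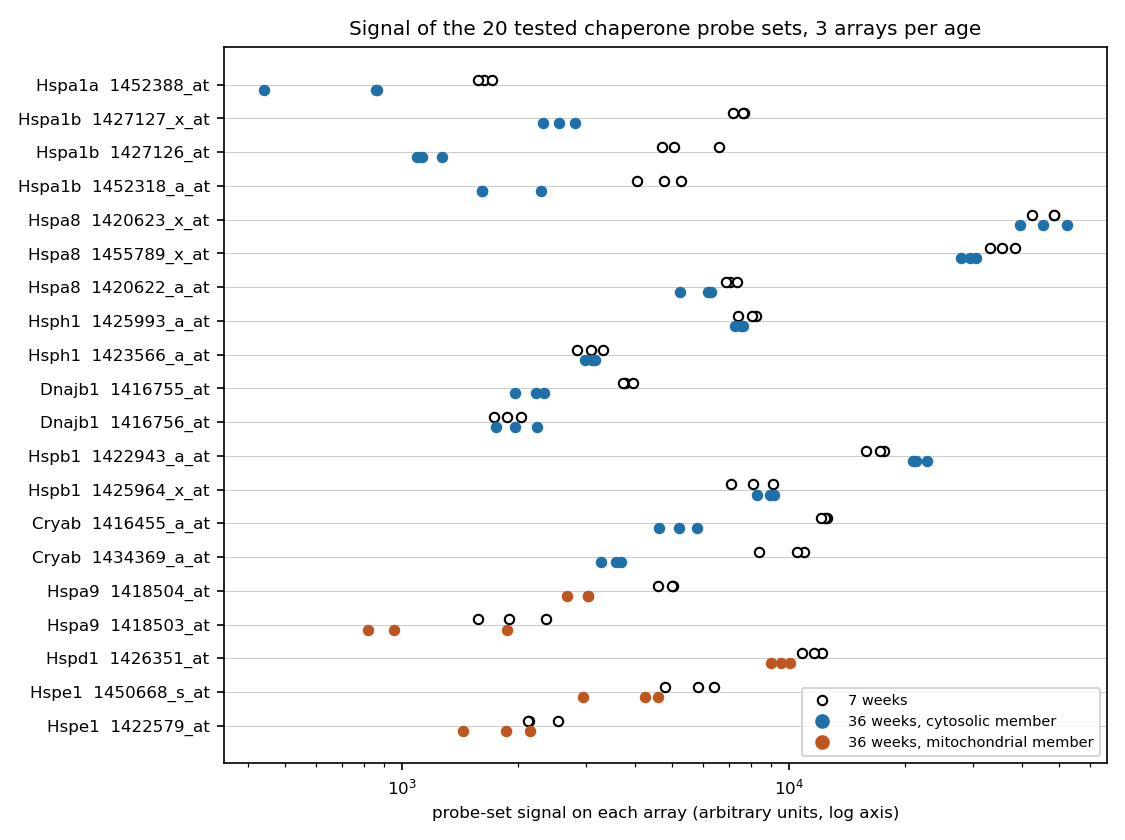
Each row is a tested probe set of a chaperone gene and each point the signal of 1 array on a log axis, with open points for the 3 arrays of 7 weeks and filled points for the 3 arrays of 36 weeks. The points of the ages are apart for all 3 probe sets of Hspa1b and both of Cryab, and mixed for both of Hsph1.

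The arrays agreed closely within an age, with correlations of log2 signal between 0.954 and 0.957, and between 0.828 and 0.838 across ages. Markers of several cell types differed on the same arrays by more than most of the chaperones. All 7 tested genes listed for spiral ligament fibrocytes, the cells that make the cochlear proteins Coch and Otos, fell. Their median log2 difference was -1.93, and their summed signal was 260014 to 267669 at 7 weeks and 79227 to 81441 at 36 weeks. Whether each of these genes is particular to fibrocytes was not examined. Of 6 tested genes of sensory and supporting cells 5 fell, with a median of -0.99 and a summed signal of 28212 to 29198 and then of 7902 to 8911. Most of that sum's change was in Epyc, at -3.63, and the other 5 genes summed to 11459 to 12780 and then to 6701 to 7516, with Otoa at -1.05. Of the hair cell genes, Otof fell by 0.405 ± 0.14 (adjusted p = 0.0462), a call near the threshold. Myo7a had a difference of 0.35 ± 0.26 and did not pass, and Pou4f3 and Ocm lay under the filter. All 13 genes of neutrophils and their precursors rose, S100a9 by 3.75 and Ltf by 3.65, with a median of 3.80 and a summed signal of 50189 to 55539 and then of 701833 to 747721. All 7 tested genes of cerebellar neurons rose, Cbln1 by 2.54 and Gabra6 by 2.24, with a median of 1.86 and a summed signal of 15654 to 17748 and then of 49513 to 54140. Of 9 tested macrophage genes 2 rose, with a median of 0.24. These were Lyz2, which neutrophils also express, by 2.66 and Cd14 by 0.35, a call that was lost with median centring. The macrophage genes summed to 41631 to 42631 and then to 166144 to 171238, and the 8 genes other than Lyz2 to 18291 to 19436 and then to 21593 to 21978. In bulk samples, fewer cells of a type and less RNA per cell cannot be told apart. The part of these markers in the differences of the chaperones was not tested.

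The inducible cytosolic Hsp70, which is scarce in unstressed cells and made in large amounts under stress, is encoded by the near-identical genes Hspa1a and Hspa1b. Probe set 1427126_at of Hspa1b had signals of 5048.3, 4691.0 and 6593.4 on the arrays of 7 weeks and of 1272.2, 1094.5 and 1125.1 on those of 36 weeks. Every old array was below every young one, and the mean fell to 21.4% of its level at 7 weeks. The log2 difference was -2.17 ± 0.14 (SE, n = 3 arrays per age; adjusted p = 1.32e-06), the 49th largest fall of the 13575 probe sets. For 1427127_x_at, the brightest of Hspa1b, signals went from 7185.9, 7682.9 and 7607.5 to 2795.7, 2544.8 and 2323.4, a log2 difference of -1.54 ± 0.10 (adjusted p = 9.93e-07). The 95% confidence intervals of these probe sets, -2.48 to -1.85 and -1.75 to -1.32, did not overlap, so the size of the fall depended on the probe set read. The last probe set of Hspa1b, 1452318_a_at, had signals of 4062.4, 5251.2 and 4756.5 and then of 1607.3, 1616.0 and 2286.7, a log2 difference of -1.34 ± 0.15 (adjusted p = 8.16e-05).

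Hspa1a was measured by 1452388_at, with signals of 1625.9, 1571.1 and 1710.3 at 7 weeks and of 864.7, 441.2 and 856.9 at 36 weeks. The ages did not overlap, and the second array of 36 weeks was the lowest. The fall was 1.18 ± 0.24 on the log2 scale (adjusted p = 0.0034), and its mean of 720.9 at 36 weeks lay below the array medians of 844.0 to 859.4. With offsets of 16 and 1 in place of 50 the log2 differences were -1.23 and -1.25. Because the sequences of Hspa1a and Hspa1b are so alike, signal of one on probes of the other was not separated here, and 1427127_x_at belongs to a kind of probe set that can bind related transcripts.

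Hspa8, the constitutive Hsp70 that most cells hold in large amounts, changed little or did not pass, depending on the probe set. The brightest, 1420623_x_at, had signals of 42563.7, 48529.7 and 48437.8 at 7 weeks and of 39551.0, 52340.9 and 45497.6 at 36 weeks. The ages overlapped, with a log2 difference of -0.03 ± 0.10 (adjusted p = 0.845) and a 95% confidence interval from -0.24 to 0.19. The interval does not reach the differences of the Hspa1b probe sets. Probe set 1455789_x_at went from 33162.5, 38503.8 and 35660.4 to 29349.9, 30540.7 and 27847.4, without overlap. It fell by 0.29 ± 0.07 on the log2 scale (adjusted p = 0.0094), but by 0.08 with quantile normalization (adjusted p = 0.346), and the call was also lost without the intensity trend of the variance (adjusted p = 0.0853).

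Signals of the Hspa8 probe set 1420622_a_at went from 7059.1, 7346.1 and 6871.4 to 6178.9, 5222.4 and 6278.3, a log2 difference of -0.27 ± 0.09 (adjusted p = 0.0441). That call was near the threshold. It was lost on leaving out any 1 array except the third of 36 weeks, with adjusted p between 0.0525 and 0.153, and with quantile normalization, no filter, no trend or the replicate block (0.0922, 0.0578, 0.119 and 0.0666). A dim probe set, 1431182_at, did not pass the filter and had means of 409.2 ± 175.7 (SD, n = 3) and 443.0 ± 188.5.

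The partners of cytosolic Hsp70 differed from each other. Dnajb1, the stress-inducible J-domain protein known as Hsp40, had signals of 3782.4, 3969.6 and 3729.3 at 7 weeks and of 2327.8, 2226.0 and 1960.5 at 36 weeks by 1416755_at. These ages were apart, the log2 difference was -0.81 ± 0.11 (adjusted p = 0.00021) and the mean at 36 weeks was 56.7% of that at 7 weeks. The other probe set of Dnajb1, 1416756_at, had signals of 1870.9, 2036.5 and 1730.3 and then of 1963.7, 2237.8 and 1756.1, which overlapped. Its log2 difference of 0.07 ± 0.13 (adjusted p = 0.704) had an interval from -0.22 to 0.37, apart from the interval of the first probe set, -1.04 to -0.57. The annotation assigned the same accession to both, and which part of the transcript each one reads was not examined.

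Hsph1, the Hsp110 that exchanges the nucleotide of Hsp70, did not pass by either of its probe sets. For 1425993_a_at the signals were 8212.7, 8053.7 and 7407.7 at 7 weeks and 7634.0, 7538.5 and 7246.0 at 36 weeks, a log2 difference of -0.08 ± 0.08 (adjusted p = 0.475). For 1423566_a_at they were 3303.6, 2844.6 and 3086.6 and then 3156.4, 3105.1 and 2977.0, with equal means to within a log2 difference of 0.00 ± 0.10. The ages overlapped in both. The intervals, -0.25 to 0.09 and -0.22 to 0.23, do not reach the difference of Dnajb1 by 1416755_at.

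**Figure D2:**
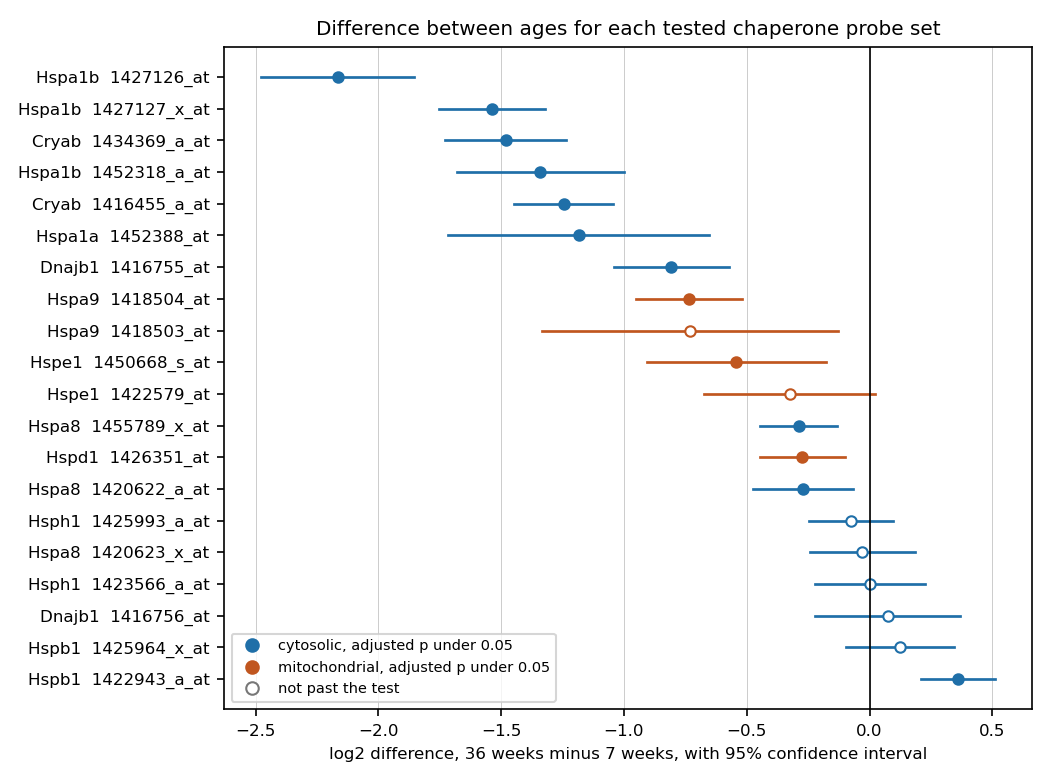
Each row is a tested probe set, with its log2 difference (36 weeks minus 7 weeks) as a point and the 95% confidence interval as a line, filled where the adjusted p was under 0.05. Differences run from -2.17 for Hspa1b to 0.36 for Hspb1, and the mitochondrial members lie between -0.74 and -0.27.

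The small heat shock proteins Cryab and Hspb1, which assemble into mixed oligomers and are both abundant in muscle, went in opposite directions. Cryab, alpha B crystallin, had signals of 12549.8, 12421.5 and 12086.2 at 7 weeks and of 5788.8, 5193.4 and 4628.9 at 36 weeks by 1416455_a_at. The mean at 36 weeks was 42.1% of that at 7 weeks, and the log2 difference was -1.24 ± 0.09 (adjusted p = 3.15e-06). Signals of 1434369_a_at went from 10973.0, 10501.5 and 8360.5 to 3271.5, 3679.5 and 3576.7, a log2 difference of -1.48 ± 0.11 (adjusted p = 3.84e-06). All old arrays were below all young ones in both probe sets. The dim 1435837_at, under the filter, had means of 367.7 ± 67.9 (SD, n = 3) and 445.3 ± 137.7.

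Hspb1, known as Hsp25 or Hsp27, was the member that rose. By 1422943_a_at its signals were 17587.7, 15841.7 and 17178.0 at 7 weeks and 22760.4, 20901.5 and 21318.3 at 36 weeks. The ages did not overlap, the mean rose 1.28-fold, and the log2 difference was 0.36 ± 0.07 (adjusted p = 0.0024). Its other probe set, 1425964_x_at, had signals of 7073.2, 8107.3 and 9125.6 and then of 8259.5, 9183.0 and 8946.3. These overlapped, with a log2 difference of 0.12 ± 0.10 (adjusted p = 0.366), and the interval from -0.10 to 0.34 overlapped that of the first, 0.21 to 0.51.

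Cryab is also expressed by skeletal muscle and myelinating cells, and most listed markers of both were lower on the same arrays. Of 20 skeletal muscle genes 19 fell, among them Tnni2 at -1.94 and Acta1 at -1.65, with a median log2 difference of -1.66, and their summed signal was between 385402 and 406129 at 7 weeks and between 131749 and 138794 at 36 weeks. Of 7 tested genes of Schwann cells and myelin 6 fell, among them S100b at -1.69 and Pmp22 at -1.07, with a median of -0.83. Mbp, a gene of myelin itself, fell by 0.33, and Mag had a difference of 0.28 ± 0.18 and did not pass. The summed signal of the 7 genes went from a range of 175008 to 184911 to one of 94824 to 103123. Without S100b, the other 6 genes summed to 128641 to 131248 and then to 81108 to 87518. Des, desmin, was the muscle gene that did not pass, at -0.56 ± 0.20 (adjusted p = 0.052). The part of muscle or myelin in the fall of Cryab was not tested. Of the lens, the tissue in which crystallins are most abundant, 7 of 9 listed marker genes were on the array and each of them lay under the filter.

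The mitochondrial chaperones fell by smaller amounts than Hspa1b or Cryab. Hspa9, or mortalin, the Hsp70 that pulls proteins into the mitochondrial matrix, had signals of 5027.5, 4997.1 and 4604.0 at 7 weeks and of 3030.7, 2671.5 and 3029.7 at 36 weeks by 1418504_at. The ages were apart, the mean fell to 59.7%, and the log2 difference was -0.74 ± 0.10 (adjusted p = 0.00022). By 1418503_at the signals were 1894.5, 2359.6 and 1577.9 and then 1872.4, 816.0 and 953.0. The log2 difference of -0.73 ± 0.27 was of the same size but did not pass (adjusted p = 0.0607), and the first array of 36 weeks lay within the range of the young arrays. Without that array the difference was -1.08 (adjusted p = 0.0030), and with each array centred on its median it was -0.83 (adjusted p = 0.0338). The other probe sets of Hspa9 were dim and under the filter, with means of 284.0 and 333.4 for 1431274_a_at and of 32.3 and 34.5 for 1453811_at.

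Hspd1, or Hsp60, which forms the folding barrel of the matrix, had signals of 12161.5, 11627.9 and 10850.8 at 7 weeks and of 9576.0, 8986.4 and 10083.2 at 36 weeks by its only probe set, 1426351_at. There was no overlap, and the fall was 0.27 ± 0.08 on the log2 scale (adjusted p = 0.0203). The call of Hspd1 was lost without the first or second array of 7 weeks or the second of 36 weeks (adjusted p = 0.0714, 0.0549 and 0.0776). It was also lost with quantile normalization (0.0757) and without the trend (0.0943).

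Hspe1, or Hsp10, the lid of that barrel, had signals of 5817.5, 6405.5 and 4802.2 at 7 weeks and of 2933.2, 4247.3 and 4586.2 at 36 weeks by 1450668_s_at, which may also bind related transcripts. The ages were apart, with a log2 difference of -0.54 ± 0.16 (adjusted p = 0.0269). Without the first array of 36 weeks, the lowest, it was -0.35 (adjusted p = 0.0708). The call was also lost without the first or second array of 7 weeks, without the filter and without the trend (adjusted p = 0.0692, 0.102, 0.0502 and 0.0784). Its other probe set, 1422579_at, had signals of 2532.9, 2128.5 and 2121.5 and then of 2144.2, 1439.9 and 1854.7, which overlapped, and a log2 difference of -0.32 ± 0.16 (adjusted p = 0.138). Hspd1 and Hspe1 by 1450668_s_at thus passed together in the setting of the report. Of the mitochondrial probe sets, only 1418504_at of Hspa9 kept its call in every alternative, and 1418503_at of Hspa9 had not passed.

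Set side by side, the cytosolic members had the wider range. By the brightest probe set of each gene, the 7 cytosolic genes lay between -1.54 and 0.36 with a median log2 difference of -0.81, and 4 fell, 1 rose and 2 did not pass. The 3 mitochondrial genes lay between -0.74 and -0.27 with a median of -0.54, and all 3 fell. By probe set, 9 of 15 cytosolic and 3 of 5 mitochondrial ones fell, against 17.7% lower of all tested probe sets. The mitochondrial count of 3 became 1 without the intensity trend, or without replicate 1 or 2 of 7 weeks. The medians by probe set were -0.29 and -0.54, so the order of the compartments turned with the choice of probe sets. The difference between the compartments was not tested, since the members share arrays and were chosen with results of these data known.

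**Figure D3:**
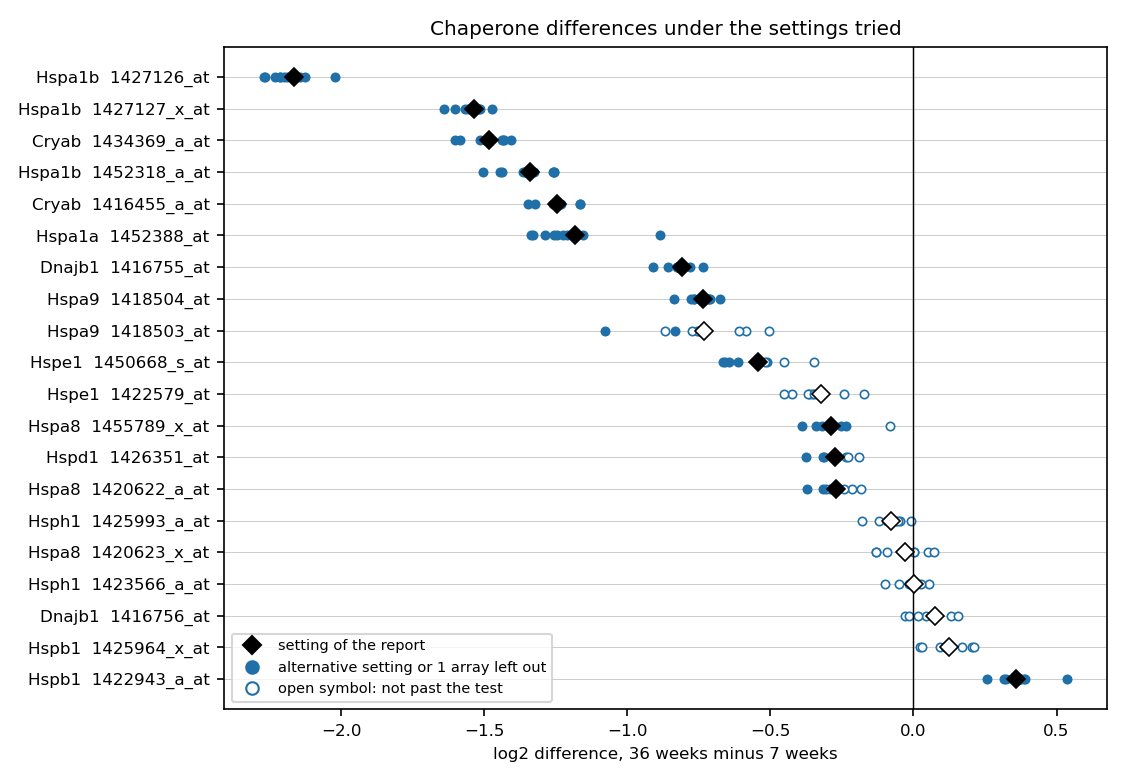
Each row is a tested probe set and each symbol its log2 difference under 1 setting, with a diamond for the setting of the report, circles for the alternatives and the arrays left out in turn, and open symbols where the adjusted p was 0.05 or above. Hspa1b, Cryab, Hspa1a, Dnajb1 by 1416755_at, Hspa9 by 1418504_at and Hspb1 by 1422943_a_at stay filled throughout, and Hspd1, Hspe1 and Hspa8 do not.

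The genes that work with these chaperones were taken from lists and read with 1 probe set per gene, the brightest of those tested. The counts of each list stand against 17.7% lower and 16.7% higher of all 13575 probe sets tested. Whether any list differs from these shares was not tested. Of 6 other tested genes of the Hsp70 and Hsp110 family 3 fell, with a median log2 difference of -0.25. These were Hspa2, abundant in the testis, by 0.59 ± 0.16, and the Hsp110 proteins Hspa4 by 0.60 ± 0.17 and Hspa4l by 0.28 ± 0.09. Hspa5 and Hyou1, which belong to the endoplasmic reticulum, had differences of -0.06 and -0.21 and did not pass. Of 15 other J-domain proteins 5 fell, with a median of -0.33. Dnajc7, a partner of Hsp70 and Hsp90, fell by 1.10 ± 0.15 and Dnajb6, a suppressor of aggregation, by 0.36 ± 0.08. Dnajc8, Dnajc13 and Dnajc21 fell by 0.34, 0.33 and 0.94, and the call of Dnajc8 was lost with quantile normalization.

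Among 10 nucleotide exchange and adaptor proteins of Hsp70, St13, which stabilises its substrate-bound form, fell by 0.70 ± 0.20. Stip1, the adaptor between Hsp70 and Hsp90, rose by 0.40 ± 0.11 and Stub1, a ubiquitin ligase of chaperone clients, by 0.26 ± 0.08, and both rises were lost when arrays were centred on their medians. Bag3, which is induced by heat shock and works with the small heat shock proteins, had a difference of 0.12 ± 0.11 and did not pass. Of 7 genes of Hsp90 and its partners Fkbp5, an immunophilin induced by glucocorticoids, fell by 0.81 ± 0.09 and Chordc1 by 0.70 ± 0.12, while Fkbp4 rose by 0.54 ± 0.16. Hsp90aa1, the stress-inducible Hsp90, had a difference of -0.08 ± 0.11 (adjusted p = 0.618). Of 4 other small heat shock proteins, Hspb3, a protein of muscle, fell by 1.04 ± 0.28 and Hspb2, Hspb7 and Hspb8 had differences of -0.27, -0.22 and -0.05 that did not pass.

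The cytosolic chaperonin TRiC, which folds actin and tubulin, and its partner prefoldin had 4 falling genes of 12, with a median of -0.16. Pfdn5 and Cct8 both fell by 0.59, Cct2 by 0.51 and Cct4 by 0.37. Beside the mitochondrial members, 14 co-chaperones and quality-control proteases of mitochondria had a median of -0.03, with 1 fall and 1 rise. Lonp1, the Lon protease of the matrix, fell by 0.54 ± 0.12. Grpel2, a nucleotide exchange factor of Hspa9, rose by 0.41 ± 0.14, a call that was lost with quantile normalization or median centring. The other exchange factor, Grpel1, and Trap1, the mitochondrial Hsp90, had differences of 0.23 ± 0.12 and 0.14 ± 0.13 and did not pass. Of 13 genes of mitochondrial protein import 5 fell and 2 rose, among them Timm23 and Timm17a of the inner membrane channel, each lower by 0.47, and Tomm22 of the outer membrane, higher by 0.63. Timm17b of the inner membrane channel was higher by 0.45, a call that was lost with median centring.

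**Figure D4:**
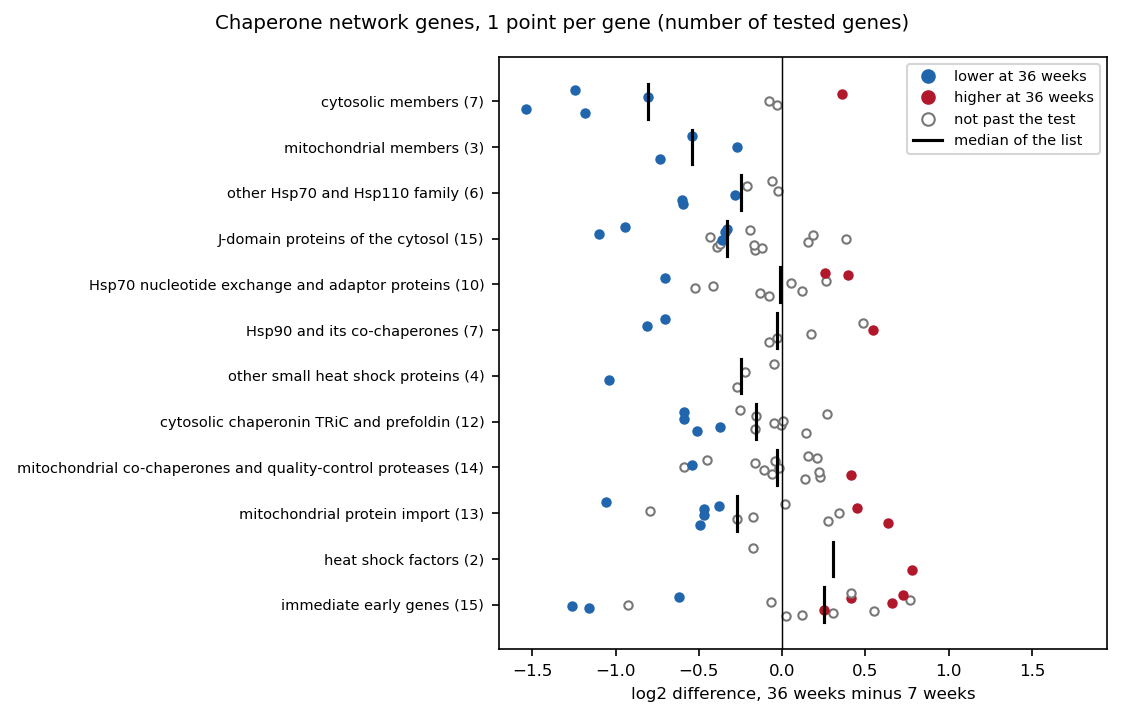
Each row is a list of genes and each point the log2 difference (36 weeks minus 7 weeks) of 1 gene, read by the brightest of its tested probe sets, coloured where the adjusted p was under 0.05, with a bar at the median of the list. By the brightest probe sets, the medians of the members, -0.81 and -0.54, lie to the left of those of the other lists. These run from -0.33 for the J-domain proteins to 0.30 for the heat shock factor list of 2 tested genes. Over all 15 tested cytosolic probe sets the median was -0.29, which is not to the left of every list. The members were chosen with results of these data known.

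Of the heat shock factors, Hsf1 and Hsf2 were not tested. Hsf4, best known from the lens, rose by 0.78 ± 0.25 from a dim mean of 651.5 to 1139.4, and lost its call under quantile normalization and median centring. Hsbp1, a binding protein of Hsf1, had a difference of -0.17 and did not pass. Of 15 immediate early genes, which are switched on within minutes of many stimuli, 3 were lower and 4 higher. Among all tested probe sets 17.7% were lower and 16.7% higher. With median centring 2 of the 15 genes were higher, and the calls of Btg2 and Jund were lost. Egr2 and Egr1 fell by 1.26 ± 0.13 and 1.16 ± 0.14, and Dusp1, a phosphatase that is also induced by heat shock and glucocorticoids, fell by 0.62 ± 0.09, while Nr4a1 and Ier2 rose by 0.73 ± 0.14 and 0.66 ± 0.16. Fos and Jun had differences of 0.02 ± 0.13 and 0.31 ± 0.12 and did not pass.

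Across all tested genes with a promoter window, 17.8% of 6926 were lower and 17.0% higher, with a median log2 difference of 0.02. Of the 966 with a 2-unit match, 18.5% were lower and 19.9% higher. Among the 39 with a run of 3 units, a count that includes Hspd1, Hspe1 and Hsph1, 13 were lower and 9 higher (33.3% and 23.1%), with a median of 0.08. The 4 tested genes with a run of 4 units were Hspd1, Hspe1, Chordc1 and Arpc2, a subunit of the actin-nucleating Arp2/3 complex. The first 3 fell as given above, and Arpc2 rose by 0.42. This grouping by letters was chosen after values were seen and was given no test.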

How the data were processed

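Total RNA from cochleae, 3 samples per age, was isolated with TRIzol, copied to biotinylated cRNA and run on Affymetrix arrays, per the labels. The authors deposited linear probe-set intensity values, and the sources used here do not name the summarising software. Each array's trimmed mean (2nd to 98th percentile) lay between 1489.8 and 1492.5, so scaling to a common level was already in the values; the absolute scale is unknown.

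Genes were named from the platform annotation (20380 probe sets with 1 symbol). Signals were tested as log2(signal + 50), which understates changes of dim probe sets, with limma 3.58.1 (R 4.3.3; lmFit, then eBayes with an intensity trend), unpaired and two-sided. The 13575 probe sets above the 40th percentile of mean signal were tested, and adjusted p-values are Benjamini-Hochberg values over them. The number of arrays limits the precision. The members and lists were chosen with earlier results of these data known. All member probe sets are named, and of each other list the 2 genes with the smallest p among those past the test in each direction; where a direction holds 5 or fewer, more of them may be named. Mbp, and genes of those lists named although they did not pass (such as Bag3, Trap1, Fos and Des), were chosen after their values were seen. Promoter windows are those of RefSeq. No link between same-numbered arrays of the ages was known beyond the number. Correlations of their deviations lay between -0.010 and 0.049, and those of unlike numbers between -0.043 and 0.045. Such values cannot show whether same-numbered arrays were processed together.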

Additional observations from a re-analysis of the deposited data

How the results depend on the processing

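The alternatives were offsets of 16 and 1, quantile normalization, median centring, all probe sets kept or only those above the 60th percentile, no intensity trend, the replicate block and each array left out in turn. Of 280 combinations of a tested chaperone probe set with an alternative, 247 kept the direction and the side of the threshold, 21 lost the call, 2 gained one and 10 changed sign. The sign changes were in probe sets that did not pass: Hspa8 by 1420623_x_at (0.052 with quantile normalization, -0.130 to 0.072 with 1 array left out), Hsph1 by 1423566_a_at (-0.099 with median centring, -0.052 to 0.054 with 1 array left out) and Dnajb1 by 1416756_at (-0.028 with median centring, -0.014 to 0.157 with 1 array left out). The count of 3 mitochondrial probe sets that fell became 1 without the intensity trend. It lay between 1 and 3 with 1 array left out, at 1 without replicate 1 or 2 of 7 weeks. Where it was 1, the calls of Hspd1 and of Hspe1 by 1450668_s_at were lost, and Hspa9 by 1418504_at kept its call. Median centring lowered every log2 difference by 0.10 and gave 1738 probe sets higher and 3088 lower, in place of 2267 and 2398, because the array medians were higher at 36 weeks. Of the chaperones' 13 probe sets past the test (12 lower), 9 passed without the intensity trend (8 lower), 10 with quantile normalization, 11 without the filter, 14 with median centring and 10 to 13 with 1 array left out. With the replicate block 4375 probe sets passed in place of 4665, and 12 of the chaperones'. The mean over the tested probe sets of a gene, chosen after seeing the data, was -0.20 for Hspa8, -0.37 for Dnajb1, 0.24 for Hspb1, -1.68 for Hspa1b and -1.36 for Cryab. Signals near the floor limit what can be said of the 4 probe sets under the filter and of Hspa1a at 36 weeks.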
